A study of Mus musculus with 20 samples.

Results

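The 47 genes described here are proximal tubule transport and metabolism genes of the mouse kidney, and they were followed through all 20 libraries of a study of Sca-1 positive kidney cells. They were taken as a list of symbols, all 47 of which were found once each among the 47729 genes counted. This list and the other gene lists below were chosen with earlier results of these data known, so their counts are descriptions. Cells carrying Sca-1, a surface protein used to enrich stem and progenitor cells, were sorted from mouse kidney with magnetic beads and are labelled as mesenchymal stem cell-like. The 6 groups were roxadustat and control at day 0 (n = 2 libraries each), at day 7 of culture (n = 4 each) and at day 21 of culture (n = 4 each). Roxadustat is an anaemia drug that inhibits the prolyl hydroxylases of hypoxia-inducible factor. Day 0 cells were lysed fresh, those of the roxadustat group after intraperitoneal injection of the mice at 33 mg/kg for 7 days. Day 7 and day 21 cells grew in a medium for mesenchymal stem cells under 20% oxygen, and the series' design text places the roxadustat cells in medium with the drug. The labels do not say whether cultured roxadustat cells came from injected mice, nor whether replicates were separate animals or cultures, so every p below measures the spread between libraries, which may be technical. That spread was fitted per gene over all 20 libraries together, so p values of day 0 rest mostly on the spread of the cultured libraries.

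The proximal tubule is the first segment of the nephron, where most of the filtered glucose, amino acids, phosphate, bicarbonate and protein is taken back. Its cells do this with sodium-coupled carriers in the brush border, exchangers and channels in the basolateral membrane, and the endocytic receptors megalin and cubilin. They also make glucose, degrade peptides at the brush border and oxidise fatty acids. Cells of this segment are known to lose much of this programme when they are grown on plastic.

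Total counts per library were 8502011 to 19903160. Levels are given in CPM, counts relative to a library total scaled by the trimmed mean of M values (TMM), and 1 CPM was 10.1 to 22.1 counts. A floor of 3 counts over a group was 0.0364 to 0.106 CPM. Changes were tested with edgeR's quasi-likelihood F test in 1 fit of all 20 libraries, with Benjamini-Hochberg adjustment over 18731 genes, and a change was called at an adjusted p under 0.05. All 47 genes passed the filter on low counts, but only 26 passed it on the 16 cultured libraries alone. The other 21 passed through their fresh level, so the fall of all listed genes between day 0 and culture is given as a description. In bulk libraries, fewer cells of a type and less RNA per cell cannot be told apart.

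The label of the cells can be set against markers of the types that a kidney preparation can hold. At day 0 the 47 proximal tubule genes summed to 95902 and 96231 CPM in roxadustat libraries and to 75630 and 94200 CPM in control libraries. The 14 fibroblast and pericyte markers summed to 1514 and 2517 CPM in roxadustat libraries and to 314 and 497 CPM in control libraries, and none of them was at 0. A list of 20 loop, distal tubule and collecting duct markers summed to 12857 and 14844 CPM in roxadustat libraries and to 16051 and 20954 CPM in control libraries. Fresh libraries of both groups thus held far more tubule transcripts than fibroblast transcripts.

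Culture removed most of this programme in both groups. The summed level of the 47 genes was 629 to 689 CPM at day 7 and 974 to 1053 CPM at day 21 in roxadustat libraries, and 328 to 340 CPM at day 7 and 197 to 230 CPM at day 21 in control libraries. Each of the 47 genes had a lower mean at day 7 and at day 21 than at day 0 in both groups. The median level left at day 7 was 0.0647% of the fresh level in roxadustat cells and 0.0561% in control cells. At day 21 it was 0.0957% in roxadustat cells and 0.00593% in control cells. In control cells of day 21 26 of the 47 genes were at or under 3 counts, so that median lies at the floor and is not a measured level.

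The loss was uneven between genes. With a limit of 1% of the fresh level, chosen after the values were seen, 14 genes lay above it in roxadustat cells at day 7 and 14 at day 21, while 6 did in control cells at day 7 and 7 at day 21. At day 21 roxadustat cells were closest to the fresh level for Slc6a18 (44.7% of the fresh level), Mme (35.2%), Slc7a7 (22.4%) and Slc4a4 (10.0%). Control cells were closest to it for Dpep1 (32.8%), Anpep (30.2%), Mme (8.03%), Slc7a7 (6.88%) and Slc4a4 (3.58%), of which Dpep1 and Anpep had been at 0.958% and 2.26% at day 7. At the other end, 11 genes were at or under 3 counts over the 4 roxadustat libraries of day 21, and 6 of these had no count. In control libraries of day 21 26 genes were at or under 3 counts and 14 had no count.

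**Figure D1:**
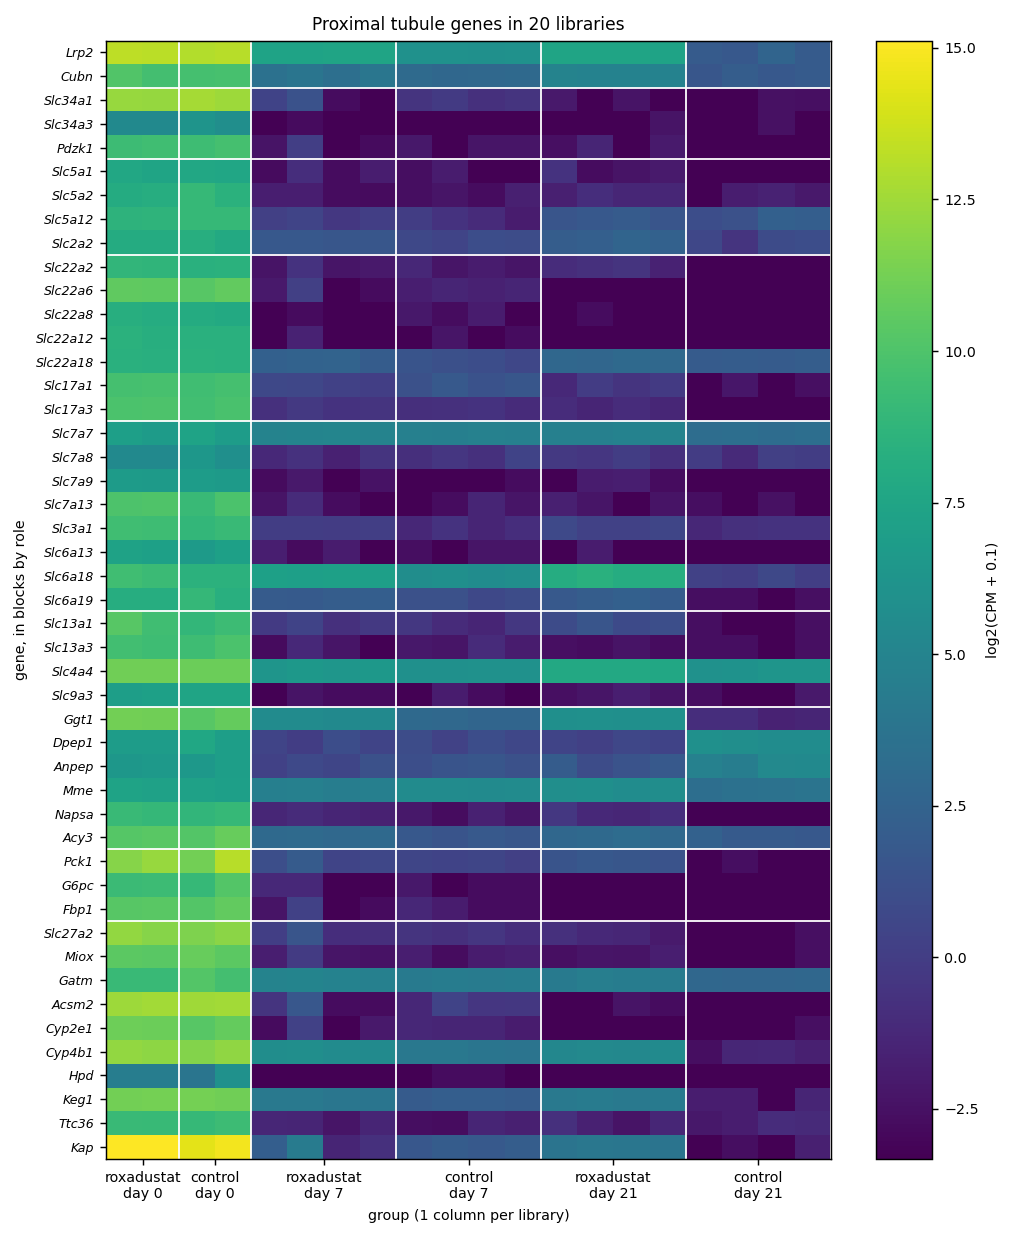
Level of the 47 genes in the 20 libraries, as log2(CPM + 0.1), with 1 row per gene in blocks by role and 1 column per library in blocks by group. The 4 left columns (day 0) are high for all genes, and a minority of rows, such as Lrp2, Slc6a18, Slc4a4 and Ggt1, stay bright in the roxadustat columns of day 7 and day 21.

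**Figure D2:**
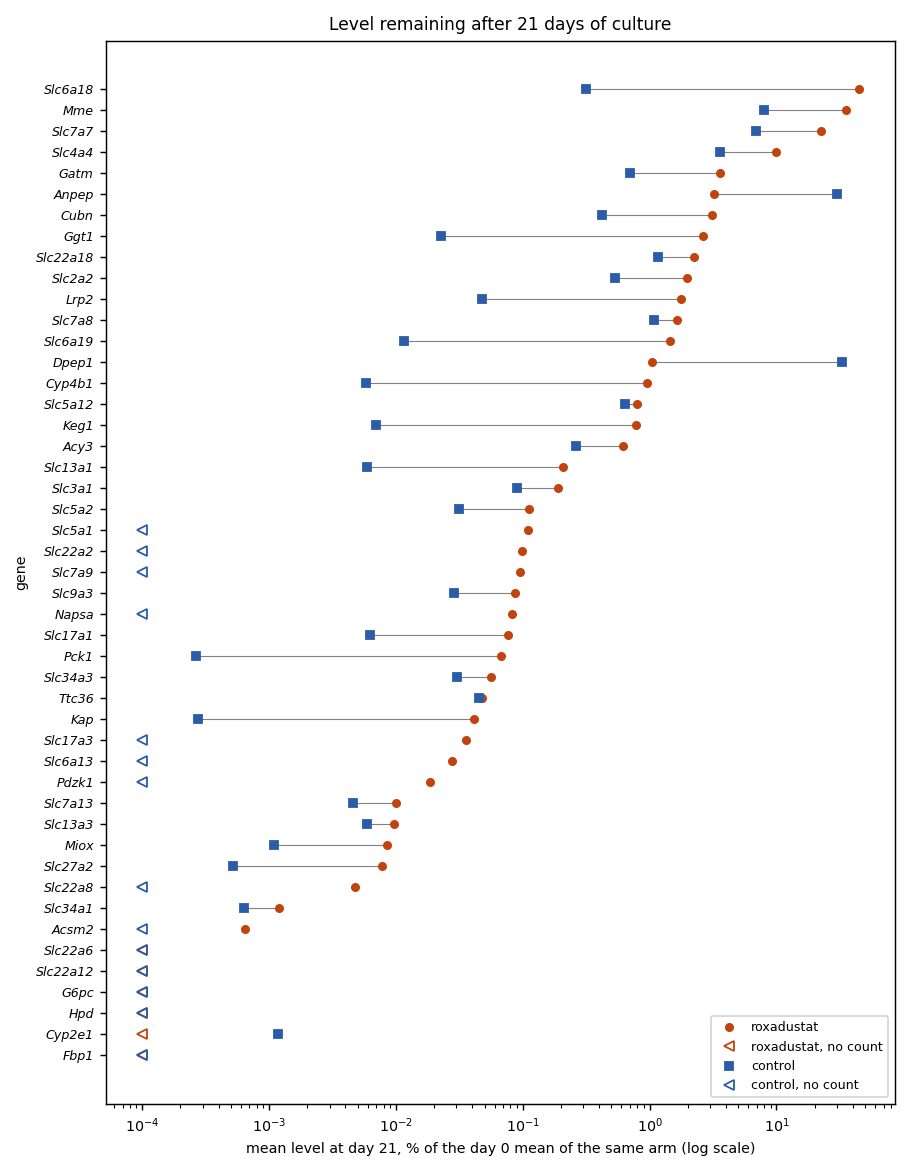
Mean level at day 21 as a percentage of the day 0 mean of the same group, on a log axis, for each of the 47 genes. Filled points are groups with a count and open triangles at the left edge are groups without one (where both groups had none, the triangles overlie each other). Roxadustat cells reach 44.7% for Slc6a18, while control cells reach 32.8% for Dpep1.

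Summed over the 47 genes, roxadustat cells held more transcript than control cells at both culture times. At day 21 24 of the 47 genes were higher in roxadustat cells and 2 were lower, beside 30.0% and 32.9% of all genes tested, and the median log2 fold change of the 47 genes was 1.64 beside 0.00 for all genes. It was 1.50 with the genes without a count in 1 group set at their lower bound and those at or under 3 counts in both groups set at 0. In control cells of day 21 26 of the 47 genes were at or under 3 counts and could hardly be called lower with roxadustat. The count of 2 lower genes is therefore not comparable with the 32.9% of all genes. Of the 24 higher genes 5 had no control count, and these 5 passed the filter only through their fresh level. The group of 24 includes the endocytic receptors, neutral amino acid carriers, the bicarbonate carrier Slc4a4 and the brush border enzymes Ggt1 and Mme. At day 7 14 genes were higher and 2 lower, beside 24.1% and 23.6% of all genes tested, with a median log2 fold change of 0.66 beside 0.03, or 0.62 with low genes set in the same way. The share of the 47 genes called higher at day 7 was thus near that of all genes. Without replicate 2 of roxadustat day 7 the lower genes numbered 6 in place of 2. All 14 genes higher at day 7 were among the 24 higher at day 21, which makes 14 of 24 the other way. With library size alone in place of TMM the same numbers, 24 higher and 2 lower, were called at day 21, although all genes then split into 9372 higher and 3549 lower in place of 5616 and 6165. The all-gene median moved by 0.34 on the log2 scale under that scaling.

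Other cell type markers moved in the same comparisons, and their part in these results was not tested. Of all genes tested, 30.0% were higher and 32.9% lower with roxadustat at day 21, and 24.1% and 23.6% at day 7. All 15 general kidney epithelium markers were higher in roxadustat cells at day 21, where they summed to 472 to 516 CPM against 20.7 to 24.1 CPM in control cells. At day 7 14 of these 15 were higher, with sums of 579 to 600 CPM in roxadustat cells and 252 to 261 CPM in control cells. Of 14 fibroblast and pericyte markers, 13 were tested and 12 were lower in roxadustat cells at day 21, with sums of 2544 to 3795 CPM against 47370 to 50658 CPM in control cells, and Tcf21 had no count in either group. Of the 10 markers of injured or dedifferentiated tubule 8 were higher and 2 lower at day 21, with sums of 22805 to 26234 CPM in roxadustat cells and 4279 to 4821 CPM in control cells. All 13 macrophage and dendritic cell markers were lower in roxadustat cells at day 7 and at day 21, where their sums were 18.1 to 20.6 CPM against 313 to 367 CPM in control cells. The 12 endothelium markers, of which 1 was higher and 6 lower with roxadustat, summed to 111 to 119 CPM against 343 to 382 CPM in control cells at day 21. Of 20 loop, distal tubule and collecting duct markers 3 were higher and 1 lower, with sums of 56.0 to 58.1 CPM in roxadustat cells and 15.85 to 19.5 CPM in control cells. Of 6 podocyte markers 1 was higher and 3 lower, with sums of 159.8 to 237 CPM in roxadustat cells and 229 to 322 CPM in control cells. No marker of the epithelium, injured tubule or macrophage lists was at 0 in either group at day 21.

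**Figure D3:**
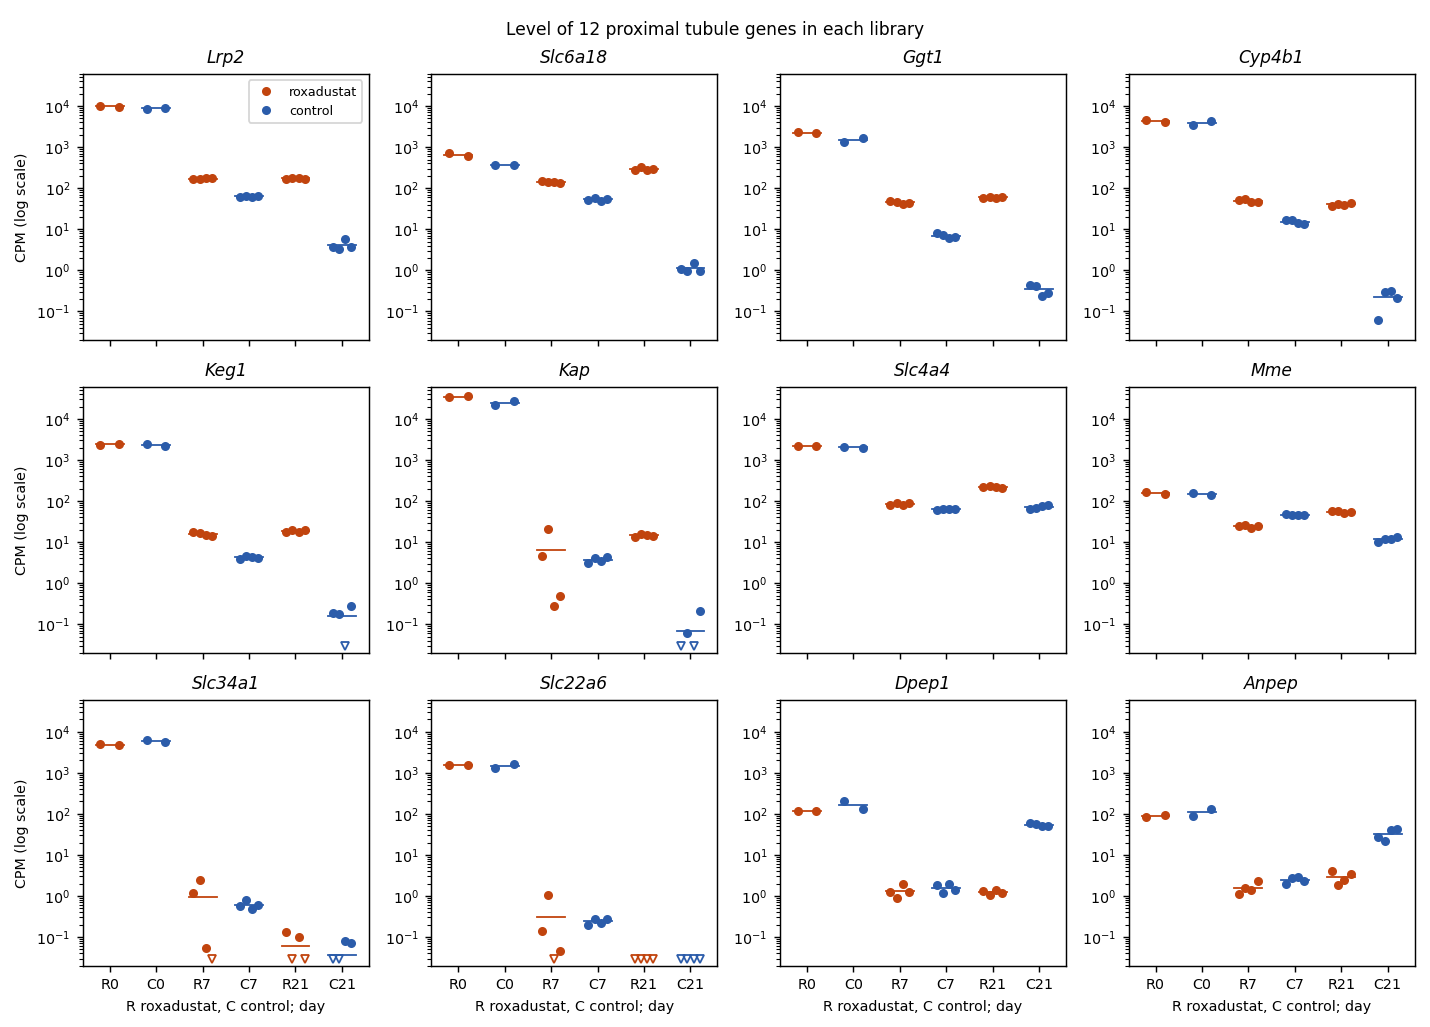
CPM of 12 genes in each library on a log axis, with roxadustat (R) left of control (C) at day 0, 7 and 21. Bars are group means and open triangles mark libraries without a count. In roxadustat cells Lrp2, Slc6a18, Ggt1 and Keg1 are at about the same level or higher at day 21 than at day 7, and Cyp4b1 is slightly lower, while control cells are at or below 5.91 CPM for each of these 5 genes at day 21. Dpep1 and Anpep run the other way.

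Both endocytic receptors were higher in roxadustat cells in culture. Lrp2 encodes megalin, the large receptor that takes filtered proteins, vitamins and drugs out of the tubular fluid (ENSMUSG00000027070, GRCm38 chr2:69424340-69586065, minus strand). It had 10056 and 9642 CPM in roxadustat libraries against 8342 and 9141 CPM in control libraries at day 0. In culture it had 163, 169, 176 and 173 CPM with roxadustat against 62.8, 65.8, 61.5 and 64.6 CPM in control at day 7, and 172, 178, 176 and 169.5 CPM against 3.75, 3.30, 5.91 and 3.79 CPM at day 21. The groups overlapped at neither culture time, and the roxadustat level was about the same at both. The log2 fold change was 1.42 ± 0.07 (SE) at day 7 (edgeR adjusted p = 3.33e-15) and 5.40 ± 0.10 at day 21 (edgeR adjusted p = 4.34e-26), and control cells fell by 3.95 on the log2 scale between the culture times.

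Cubn encodes cubilin, the partner of megalin that binds intrinsic factor, albumin and apolipoproteins (ENSMUSG00000026726, GRCm38 chr2:13276338-13491813, minus strand). At day 0 it had 1118 and 798 CPM in roxadustat libraries and 814 and 881 CPM in control libraries. It had 11.9, 14.2, 10.6 and 15.1 CPM in roxadustat libraries and 8.22, 6.97, 7.52 and 8.00 CPM in control libraries at day 7. Day 21 values were 30.8, 29.1, 29.5 and 29.3 CPM with roxadustat and 2.89, 4.20, 3.35 and 3.86 CPM in control. Cubn is one of the few genes that went up again in roxadustat cells, with a log2 change of 1.19 ± 0.11 from day 7 to day 21 (edgeR adjusted p = 9.7e-09), while it changed by -1.10 ± 0.16 in control cells (edgeR adjusted p = 3.6e-06).

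Proteins that work with these receptors did not follow them as a group. Of 15 listed partners of the endocytic apparatus 4 were higher with roxadustat at day 21 and 9 were lower, beside 30.0% and 32.9% of all genes tested, with a median log2 fold change of -0.25. The motor Myo6 had 311 CPM in roxadustat cells and 76.6 CPM in control cells, and the endosomal chloride exchanger Clcn5 had 285 CPM in roxadustat cells and 141 CPM in control cells. The adaptor Dab2, which binds the tail of megalin, was lower at 23.6 CPM with roxadustat against 68.3 CPM in control. The lysosomal genes Ctsb and Lamp1, which every cell type uses, were lower with log2 fold changes of -1.61 and -1.13, as was the albumin and IgG receptor gene Fcgrt at -1.36.

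Transcripts of the phosphate carriers were low at day 7 and at or near the floor of 3 counts at day 21 in both groups. Slc34a1 encodes the main sodium-phosphate cotransporter of the brush border (ENSMUSG00000021490, GRCm38 chr13:55398187-55415592, plus strand), and it was among the most abundant listed genes in fresh cells with 4929 and 4826 CPM in roxadustat libraries and 6327 and 5606 CPM in control libraries. At day 7 it had 1.20, 2.46, 0.0545 and 0 CPM with roxadustat against 0.582, 0.781, 0.487 and 0.591 CPM in control, and at day 21 0.136, 0, 0.0994 and 0 CPM against 0, 0, 0.0799 and 0.0703 CPM. The 4 roxadustat libraries of day 7 disagree with each other, replicates 1 and 2 lying above the control range and replicates 3 and 4 below it. At day 21 the group sums were 3 counts with roxadustat and 2 in control. The second cotransporter Slc34a3 had 0 to 2 counts in each cultured group, and the scaffold gene Pdzk1, whose protein holds brush border carriers in place, had 9 counts in roxadustat libraries and 0 in control libraries at day 21 (edgeR adjusted p = 0.188). With DESeq2 Pdzk1 was called higher (adjusted p = 0.048), and 41.7% of its exon bases overlap other genes, which non-stranded counts cannot separate.

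Glucose carriers of the brush border were close to the floor in culture, and the basolateral carrier was not. Slc2a2 encodes the facilitative carrier through which reabsorbed glucose leaves the cell. In fresh cells it had 257 and 260.1 CPM in roxadustat libraries and 302 and 238 CPM in control libraries. In culture it had 3.36, 3.21, 2.94 and 2.98 CPM in roxadustat libraries and 1.49, 1.28, 1.95 and 1.82 CPM in control libraries at day 7, then 4.15, 4.66, 6.16 and 5.26 CPM with roxadustat against 1.41, 0.600, 1.76 and 1.97 CPM in control at day 21. It was higher in roxadustat cells at day 7 (log2 fold change 0.92 ± 0.20, edgeR adjusted p = 0.000574) and at day 21 (1.83 ± 0.21, edgeR adjusted p = 5.64e-08). The sodium-glucose cotransporter Slc5a1 was at least 4.10-fold higher with roxadustat at day 21, with 13 counts against 0, but 8 of these counts came from replicate 1 and the call was lost without it (edgeR adjusted p = 0.0603). Slc5a2, the high-capacity cotransporter that gliflozin drugs block, had 0.310 ± 0.0993 CPM in roxadustat cells and 0.140 ± 0.102 CPM in control cells at day 21 (SD, n = 4 each) and was not called.

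Slc5a12, a sodium-coupled lactate carrier and the listed gene of this role with the highest CPM in fresh cells, was not called between the groups at any time. At day 0 it had 389 and 409 CPM with roxadustat and 526 and 535 CPM in control. It had 1.01, 1.27, 0.709 and 0.950 CPM with roxadustat and 0.906, 0.558, 0.379 and 0.161 CPM in control at day 7, and 2.86, 3.27, 3.88 and 2.80 CPM with roxadustat and 1.90, 2.28, 4.95 and 4.36 CPM in control at day 21. It rose between the culture times in roxadustat cells (log2 change 1.65 ± 0.31, edgeR adjusted p = 0.000158) and in control cells (2.74 ± 0.37, edgeR adjusted p = 3.75e-06). The log2 fold change between the groups at day 21 was -0.06 ± 0.26 (edgeR adjusted p = 0.873). The control libraries of day 21 fall into 2 close pairs, and without replicates 3 and 4 the fold change was 0.58 (edgeR adjusted p = 0.0215).

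Organic ion carriers, which secrete drugs and toxins and handle urate, were mostly lost. Slc22a6 encodes the organic anion transporter of the basolateral membrane (ENSMUSG00000024650, GRCm38 chr19:8618039-8628299, plus strand) and had 1547 and 1516 CPM in roxadustat libraries and 1301 and 1669 CPM in control libraries at day 0. At day 7 the values were 0.144, 1.04, 0 and 0.0452 CPM with roxadustat and 0.194, 0.279, 0.216 and 0.268 CPM in control, with replicate 2 alone high in the roxadustat group. No count was left in any of the 8 libraries of day 21. The neighbouring anion transporter Slc22a8, which lies 6203 bases away on chromosome 19, and the urate exchanger Slc22a12 had 0 or 1 count in each group at day 21. The cation transporter Slc22a2 had 26 counts in roxadustat libraries and 0 in control libraries, which makes it at least 8.20-fold higher.

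Slc22a18, an imprinted gene of the same carrier family, was the best kept of this role. It had 329.5 and 315 CPM with roxadustat and 351 and 327 CPM in control at day 0. It had 4.90, 5.47, 5.83 and 4.07 CPM with roxadustat against 2.65, 2.12, 2.00 and 1.45 CPM in control at day 7. At day 21 it had 7.01, 6.61, 7.85 and 7.52 CPM with roxadustat against 3.87, 4.08, 3.75 and 4.14 CPM in control. The groups did not overlap at either culture time, with log2 fold changes of 1.31 ± 0.13 (edgeR adjusted p = 3.48e-09) and 0.86 ± 0.12 (edgeR adjusted p = 3.61e-07), and the level rose between day 7 and day 21 in both groups.

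The phosphate and urate carriers Slc17a1 and Slc17a3 lie 7033 bases apart on chromosome 13. Slc17a1 had 819 and 881 CPM with roxadustat and 702 and 814 CPM in control at day 0. By day 7 it had 1.54, 1.42, 1.09 and 0.950 CPM with roxadustat against 2.33, 3.46, 2.43 and 2.90 CPM in control. By day 21 it had 0.340, 0.888, 0.597 and 0.787 CPM with roxadustat against 0, 0.120, 0 and 0.0703 CPM in control. It was thus lower in roxadustat cells at day 7 (log2 fold change -1.16 ± 0.19, edgeR adjusted p = 1e-05) and higher at day 21, where 43 counts stood against 3 (ratio 13.6, exact 95% counting interval 4.34 to 68.3). Slc17a3 was not called at day 7, and at day 21 it had 21 counts with roxadustat and 0 in control, at least 6.62-fold higher. The change between the culture times was itself called for Slc17a1 (difference of log2 fold changes 4.73 ± 0.59, edgeR adjusted p = 2.22e-07) and for Slc17a3 (edgeR adjusted p = 4.61e-05). No size is given for Slc17a3, since it had no control count at day 21.

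Among the amino acid carriers, Slc6a18 had the largest fold difference of all 47 genes that had over 3 counts in both groups at day 21. It encodes a carrier of glycine and other neutral amino acids in the late proximal tubule (ENSMUSG00000021612, GRCm38 chr13:73661752-73678023, minus strand). It had 708 and 607 CPM in roxadustat libraries against 369.6 and 360.3 CPM in control libraries at day 0. In culture it had 146, 138, 143 and 136 CPM with roxadustat and 51.4, 56.8, 50.0 and 54.8 CPM in control at day 7, and 279.7, 329, 274 and 291 CPM against 1.10, 0.961, 1.52 and 0.984 CPM at day 21. The groups were separate at all 3 times, and roxadustat cells gained while control cells lost between the culture times. Its log2 fold change was 0.85 ± 0.09 at day 0 (edgeR adjusted p = 2.07e-07), 1.40 ± 0.06 at day 7 (edgeR adjusted p = 2.73e-16) and 8.02 ± 0.11 at day 21 (edgeR adjusted p = 9.73e-29).

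Slc6a19 encodes the main neutral amino acid carrier of the early proximal tubule and lies 1721 bases from Slc6a18 on chromosome 13. It had 288 and 282 CPM with roxadustat and 507 and 324 CPM in control at day 0. It had 3.79, 3.63, 4.25 and 4.52 CPM with roxadustat and 2.27, 2.34, 1.51 and 1.88 CPM in control at day 7, then 3.40, 4.27, 4.87 and 4.03 CPM against 0.0614, 0.0600, 0 and 0.0703 CPM at day 21. Roxadustat cells were at a like level at both culture times (log2 change 0.02 ± 0.18, edgeR adjusted p = 0.948), while control cells came down to 3 counts in all. At day 21 258 counts with roxadustat stood against these 3, a ratio of 81.4 with an exact 95% counting interval of 27.5 to 397. In fresh cells the gene was lower with roxadustat (log2 fold change -0.55 ± 0.13, edgeR adjusted p = 0.0135), but leaving out either fresh roxadustat library or control replicate 1 ended this call, with -0.20 in the last case (edgeR adjusted p = 0.277).

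Slc7a7 encodes the light chain of the basolateral exporter of cationic amino acids. In fresh cells it had 134 and 112 CPM with roxadustat and 165 and 118 CPM in control. It had 31.0, 31.6, 34.0 and 29.9 CPM with roxadustat against 26.5, 24.4, 28.1 and 26.0 CPM in control at day 7. Day 21 values were 26.1, 26.6, 28.3 and 29.6 CPM with roxadustat and 9.46, 10.1, 9.26 and 10.2 CPM in control. The difference was small at day 7 (log2 fold change 0.27 ± 0.08, edgeR adjusted p = 0.0104) and larger at day 21 (1.50 ± 0.10, edgeR adjusted p = 1.51e-13). The gene is used by macrophages as well. Their 13 markers were lower with roxadustat at both times, beside 23.6% of all genes tested at day 7 and 32.9% at day 21. The part of macrophages in the Slc7a7 result was not tested.

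The cystine carrier is made of the heavy chain Slc3a1 and the light chain Slc7a9. Slc3a1 had 701 and 663 CPM with roxadustat and 472 and 585 CPM in control at day 0. At day 7 it had 0.912, 0.944, 0.872 and 0.995 CPM with roxadustat against 0.324, 0.558, 0.271 and 0.429 CPM in control. In libraries of day 21 it had 1.56, 1.11, 1.09 and 1.38 CPM with roxadustat against 0.307, 0.480, 0.559 and 0.562 CPM in control. It was higher in roxadustat cells at day 7 (log2 fold change 1.22 ± 0.25, edgeR adjusted p = 0.000228) and at day 21 (1.45 ± 0.25, edgeR adjusted p = 1.11e-05). Of its exon bases 26.5% overlap Prepl, whose reads non-stranded counts cannot separate. Slc7a9 had 6 counts with roxadustat and 0 in control at day 21, at least 1.89-fold higher, and its call was lost with limma voom (adjusted p = 0.054).

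Slc7a13, Slc6a13 and Slc7a8 were not called between the groups in culture. Slc7a13, a light chain of the late proximal tubule and the most abundant of this role in fresh cells, had 984 and 1069 CPM with roxadustat and 588 and 942 CPM in control at day 0. It had 0.0960, 0.378, 0.0545 and 0 CPM with roxadustat and 0, 0.0558, 0.271 and 0.107 CPM in control at day 7, and 0.204, 0.111, 0 and 0.0983 CPM with roxadustat and 0.0614, 0, 0.0799 and 0 CPM in control at day 21. Both groups were thus near the floor from day 7 on. The GABA and taurine carrier Slc6a13 had 3 counts with roxadustat and 0 in control at day 21. Slc7a8, which exchanges neutral amino acids across the basolateral membrane, had 0.700 ± 0.168 CPM with roxadustat and 0.793 ± 0.298 CPM in control at day 21 (SD, n = 4 each).

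Slc4a4, the basolateral sodium-bicarbonate cotransporter (ENSMUSG00000060961, GRCm38 chr5:88886818-89239653, plus strand), fell in both groups and was regained in small part with roxadustat. At day 7 it was at 3.84% of the fresh level with roxadustat and at 3.10% in control. At day 21 it was at 10.0% with roxadustat and at 3.58% in control. It had 2210 and 2219 CPM in roxadustat libraries and 2046 and 2004 CPM in control libraries at day 0. It had 79.7, 89.2, 80.5 and 91.0 CPM with roxadustat against 61.6, 62.5, 63.7 and 63.7 CPM in control at day 7. At day 21 it had 222, 229, 223 and 212 CPM with roxadustat against 64.4, 69.2, 77.6 and 78.8 CPM in control. The groups did not overlap at either culture time. Roxadustat cells rose between day 7 and day 21 (log2 change 1.38 ± 0.06, edgeR adjusted p = 3.86e-16), and control cells rose by little (0.20 ± 0.06, edgeR adjusted p = 0.00449). The log2 fold change between the groups was 0.44 ± 0.06 at day 7 (edgeR adjusted p = 7.29e-07) and 1.61 ± 0.06 at day 21 (edgeR adjusted p = 4.27e-19).

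The sulfate carrier Slc13a1 was low in culture and higher with roxadustat at day 21. It had 1266 and 723 CPM with roxadustat and 474 and 637 CPM in control at day 0. By day 7 it had 0.768, 1.23, 0.491 and 0.724 CPM with roxadustat and 0.712, 0.390, 0.271 and 0.698 CPM in control, where the groups overlapped and no change was called. By day 21 it had 1.77, 2.78, 1.69 and 2.06 CPM with roxadustat against 0.0614, 0, 0 and 0.0703 CPM in control, which is 135 counts against 2 (ratio 63.9, exact 95% counting interval 17.3 to 533). Its rise in roxadustat cells between the culture times (log2 change 1.38 ± 0.44, edgeR adjusted p = 0.0129) lost its call without replicate 2 of day 21 (edgeR adjusted p = 0.0522). At day 21 the dicarboxylate carrier Slc13a3 had 4 counts with roxadustat and 3 in control, and the sodium-proton exchanger Slc9a3 had 7 with roxadustat and 3 in control.

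All 6 peptidase and acylase genes were called at day 21, 4 higher and 2 lower with roxadustat, beside 30.0% and 32.9% of all genes tested. Ggt1 encodes gamma-glutamyltransferase, which starts the breakdown of glutathione at the brush border (ENSMUSG00000006345, GRCm38 chr10:75561604-75586200, plus strand). It had 2338 and 2196 CPM in roxadustat libraries and 1309 and 1706 CPM in control libraries at day 0. In culture it had 47.8, 47.4, 42.2 and 43.1 CPM with roxadustat against 7.96, 7.36, 6.22 and 6.44 CPM in control at day 7, and 58.1, 61.1, 58.0 and 61.6 CPM against 0.430, 0.420, 0.240 and 0.281 CPM at day 21. The groups were apart at all 3 times, and after day 7 roxadustat cells rose by 0.40 on the log2 scale while control cells fell by 4.28. The log2 fold change was 2.69 ± 0.09 at day 7, the highest of the 16 called there (edgeR adjusted p = 1.74e-19), and 7.38 ± 0.15 at day 21 (edgeR adjusted p = 3.33e-25).

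Mme encodes neprilysin, a membrane peptidase that is also present on stromal and some immune cells (ENSMUSG00000027820, GRCm38 chr3:63241537-63386030, plus strand). It had 162 and 149.5 CPM with roxadustat and 153 and 138 CPM in control at day 0. At day 7 it had 24.4, 25.9, 22.0 and 24.7 CPM with roxadustat against 47.3, 46.8, 45.1 and 46.9 CPM in control. In libraries of day 21 it had 56.7, 58.7, 50.3 and 53.9 CPM with roxadustat against 9.83, 11.6, 12.1 and 13.3 CPM in control. The groups changed places between the culture times without overlap at either one. Its log2 fold change was -0.94 ± 0.07 at day 7 (edgeR adjusted p = 5.86e-12) and 2.24 ± 0.08 at day 21 (edgeR adjusted p = 6.23e-20), and the difference between these was 3.18 ± 0.10 (edgeR adjusted p = 9.35e-20).

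Dpep1 and Anpep were the 2 genes lower with roxadustat at day 21. Dpep1 encodes a membrane dipeptidase (ENSMUSG00000019278, GRCm38 chr8:123186242-123201812, plus strand) and had 117 and 118 CPM with roxadustat and 202 and 128 CPM in control at day 0. At day 7 it was low in both groups, with 1.25, 0.897, 1.91 and 1.27 CPM in roxadustat libraries and 1.81, 1.17, 1.95 and 1.40 CPM in control libraries. At day 21 it had 1.29, 1.05, 1.39 and 1.18 CPM with roxadustat against 60.2, 55.8, 49.8 and 50.9 CPM in control. No change between the culture times was called in roxadustat cells, and the control level rose 34.3-fold between the culture times (edgeR adjusted p = 4.21e-16). The log2 fold change at day 21 was -5.48 ± 0.19 (edgeR adjusted p = 2.27e-16).

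Anpep encodes aminopeptidase N, a brush border enzyme that stromal and myeloid cells also carry (ENSMUSG00000039062, GRCm38 chr7:79821803-79861059, minus strand). At day 0 it had 86.0 and 95.1 CPM with roxadustat and 89.2 and 130.3 CPM in control. It had 1.10, 1.56, 1.36 and 2.26 CPM with roxadustat and 2.01, 2.68, 2.92 and 2.31 CPM in control at day 7, and 3.95, 1.89, 2.48 and 3.39 CPM with roxadustat against 26.8, 21.9, 40.1 and 43.7 CPM in control at day 21. The pattern was that of Dpep1, with no call at day 7 and -3.48 ± 0.28 on the log2 scale at day 21 (edgeR adjusted p = 1.18e-08). Control replicates 3 and 4 of day 21 had more Anpep and less Dpep1 than replicates 1 and 2. The fibroblast and pericyte list as a whole rose between the culture times in control cells, with 12 of 13 tested markers higher, beside 34.5% of all genes tested. The part of this in the results for Dpep1 and Anpep was not tested.

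The other enzymes of this role were low. Acy3, an aminoacylase that removes acetyl groups from mercapturic acids, had 1203 and 1354 CPM with roxadustat and 1155 and 1859 CPM in control at day 0. It had 7.97, 8.07, 7.31 and 7.64 CPM with roxadustat against 3.37, 2.62, 3.46 and 2.95 CPM in control at day 7, and 7.21, 7.94, 8.95 and 7.47 CPM against 5.22, 3.72, 3.67 and 3.30 CPM at day 21. The groups did not overlap at either culture time, and no change between the times was called in either group. The log2 fold change was 1.32 ± 0.19 at day 7 (edgeR adjusted p = 8.27e-06) and 0.96 ± 0.19 at day 21 (edgeR adjusted p = 0.000219). Napsa, an aspartic protease of lysosomes, had 28 counts with roxadustat and 0 in control at day 21, at least 8.83-fold higher.

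The 3 genes of gluconeogenesis were low in culture. Pck1 encodes the enzyme that commits carbon to glucose synthesis, and it is the most abundant of the 3 in fresh cells. In fresh cells it had 3452 and 4996 CPM in roxadustat libraries and 2324 and 9039 CPM in control libraries, so that control libraries differed more from each other than the groups did. By day 7 it had 2.02, 3.78, 1.31 and 1.40 CPM with roxadustat and 1.36, 1.23, 1.35 and 1.02 CPM in control. By day 21 it had 2.72, 3.22, 2.98 and 2.51 CPM with roxadustat against 0, 0.0600, 0 and 0 CPM in control. The groups touched at day 7 and were apart at day 21, where 179 counts stood against 1 (ratio 169, exact 95% counting interval 30.0 to 6725), and the call was lost with limma voom (adjusted p = 0.196). G6pc and Fbp1, which encode phosphatases on the way to glucose, had no count at day 21 in either group.

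Of the 10 remaining metabolic genes, 4 were called at day 21, and all 4 were higher with roxadustat, beside 30.0% of all genes tested. Cyp4b1 encodes a cytochrome that oxidises fatty acids and foreign compounds (ENSMUSG00000028713, GRCm38 chr4:115624725-115647723, minus strand). It had 4484 and 4076 CPM in roxadustat libraries and 3408 and 4245 CPM in control libraries at day 0. In culture it had 52.0, 54.9, 47.4 and 45.8 CPM with roxadustat against 16.9, 16.4, 14.6 and 13.7 CPM in control at day 7, and 37.9, 41.0, 39.4 and 44.2 CPM against 0.0614, 0.300, 0.319 and 0.211 CPM at day 21. Between the culture times it dropped slightly in roxadustat cells (log2 change -0.30 ± 0.08, edgeR adjusted p = 0.0028) and fell by 6.09 on the log2 scale in control cells. Its log2 fold change was 1.70 ± 0.09 at day 7 (edgeR adjusted p = 3.91e-15) and 7.50 ± 0.18 at day 21 (edgeR adjusted p = 2.16e-23).

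Keg1, a kidney gene related to glycine N-acyltransferases (ENSMUSG00000024694, GRCm38 chr19:12695786-12719902, plus strand), followed the same course. It had 2331 and 2432 CPM with roxadustat and 2408 and 2231 CPM in control at day 0. It had 17.6, 17.0, 14.7 and 14.1 CPM with roxadustat against 3.88, 4.52, 4.44 and 4.08 CPM in control at day 7. In libraries of day 21 it had 17.4, 20.0, 17.4 and 19.5 CPM with roxadustat against 0.184, 0.180, 0 and 0.281 CPM in control. The groups were apart at both culture times, with log2 fold changes of 1.90 ± 0.10 (edgeR adjusted p = 5.68e-15) and 6.74 ± 0.19 (edgeR adjusted p = 7.67e-22).

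Gatm encodes the enzyme of the first step of creatine synthesis. At day 0 it had 576 and 591 CPM with roxadustat and 1186 and 787 CPM in control. It had 30.6, 31.3, 29.1 and 26.1 CPM with roxadustat against 18.4, 21.0, 20.0 and 21.0 CPM in control at day 7. Day 21 values were 19.3, 23.3, 21.4 and 20.4 CPM with roxadustat and 6.94, 6.72, 6.87 and 6.96 CPM in control. In fresh cells it was lower with roxadustat (log2 fold change -0.76 ± 0.12, edgeR adjusted p = 0.000223), and in culture it was higher, by 0.54 ± 0.10 at day 7 (edgeR adjusted p = 9.34e-05) and 1.62 ± 0.12 at day 21 (edgeR adjusted p = 6.88e-11). It fell in both groups between the culture times.

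Kap, the kidney androgen-regulated protein gene, was the most abundant listed gene in fresh cells by CPM and per length (ENSMUSG00000032758, GRCm38 chr6:133849851-133853762, minus strand). It had 34361 and 35647 CPM in roxadustat libraries and 21220 and 27980 CPM in control libraries at day 0. At day 7 it had 4.56, 20.6, 0.273 and 0.497 CPM with roxadustat and 3.11, 4.01, 3.46 and 4.29 CPM in control, and at day 21 13.5, 15.6, 15.0 and 13.8 CPM against 0, 0.0600, 0 and 0.211 CPM. At day 21 all 4 roxadustat libraries were alike and all 4 control libraries near the floor, which is 7.60 ± 1.56 on the log2 scale (edgeR adjusted p = 0.000544), but at day 7 the roxadustat libraries ran from below the control range to above it. The change from day 7 to day 21 in roxadustat cells was 1.14 on the log2 scale and was not called (edgeR adjusted p = 0.152). Without replicate 2 of day 7 it was 3.00 (edgeR adjusted p = 8.03e-05), and without replicates 1 and 2 it was 5.17 (edgeR adjusted p = 2.57e-13).

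The other 6 metabolic genes were not called between the groups in culture. Slc27a2, which imports and activates very long chain fatty acids, had 19 counts with roxadustat and 1 in control at day 21 (edgeR adjusted p = 0.0976), and it was called higher with DESeq2 (adjusted p = 0.0019). Miox, which opens the ring of myo-inositol, had 8 counts with roxadustat and 1 in control. Acsm2, a medium-chain acyl-CoA synthetase gene, had 2 counts with roxadustat and 0 in control after means of 5767 and 5970 CPM in the fresh roxadustat and control cells. The cytochrome gene Cyp2e1 and the tyrosine catabolism gene Hpd had at most 1 count in either group at day 21. Ttc36 had 18 counts with roxadustat and 15 in control, and 47.6% of its exon bases overlap another gene.

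**Figure D4:**
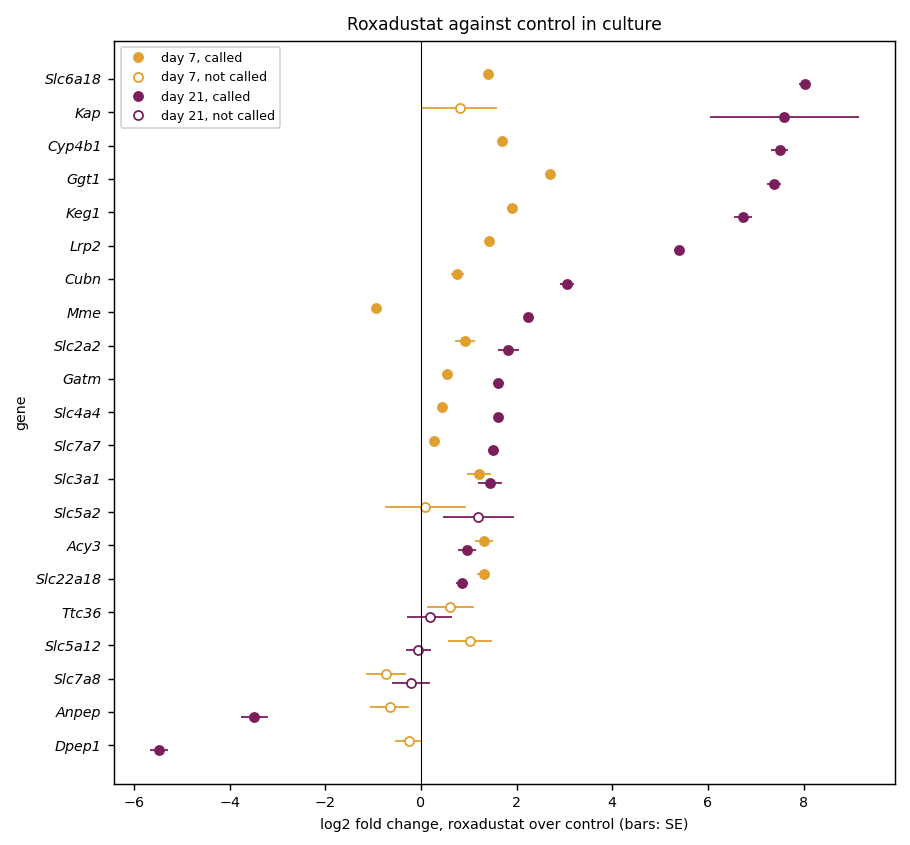
Log2 fold change of roxadustat over control at day 7 and day 21 for the 21 genes with over 3 counts in both groups at both times, with SE bars. Filled points were called. Points of day 21 lie right of those of day 7 for most genes, up to 8.02 for Slc6a18, Mme changes sides, and Dpep1 and Anpep lie at -5.48 and -3.48.

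The difference between the groups widened between day 7 and day 21. In the test of that change 19 of the 47 genes had a larger log2 fold change at day 21 and 3 a smaller one, beside 20.9% and 23.8% of all genes tested. With library size alone 19 and 2 of the 47 were called, and all genes split into 6504 and 2501 in place of 3919 and 4463. The largest widening among genes with over 3 counts in all 4 groups was 6.79 ± 2.10 for Kap, 6.62 ± 0.13 for Slc6a18, 5.80 ± 0.24 for Cyp4b1 and 4.84 ± 0.27 for Keg1. The place of Kap did not hold beyond its SE. Kap had only 0, 1, 0 and 3 counts in the control libraries of day 21, and its roxadustat libraries of day 7 disagreed with each other. The 3 smaller ones were Dpep1, Anpep and Slc22a18. Against day 0, 15 genes had a larger log2 fold change at day 7 and 2, Slc17a1 and Mme, a smaller one, beside 15.5% and 13.4% of all genes tested. Without replicate 2 of roxadustat day 7 4 had a smaller one.

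Within each group the listed genes took different courses from day 7 to day 21, all at levels below the fresh ones. In roxadustat cells 10 genes rose and 8 fell, beside 28.6% and 32.9% of all genes tested, and in control cells 5 rose and 19 fell, beside 34.5% and 34.3%. Both roxadustat shares were thus below those of all genes, and the share that fell in control cells was near that of all genes. In neither group was a change called for 19 of the 47 genes, many of them near the floor. The median log2 change of the 47 genes was 0.17 in roxadustat cells and -3.10 in control cells, or 0.02 and -1.43 with genes without counts at their bounds. Cubn, Slc6a18, Slc13a1, Ggt1, Mme and Keg1 rose with roxadustat and fell in control cells. Slc5a12, Slc22a18 and Slc4a4 rose in both, and Slc17a1, Slc17a3, Slc27a2, Gatm and Cyp4b1 fell in both. Lrp2, Slc22a2, Slc22a8, Slc7a7, Slc6a19, Napsa, Pck1 and Kap fell in control cells without a call in roxadustat cells. Several of these calls were lost without 1 library. In roxadustat cells this held for the rises of Keg1 (edgeR adjusted p up to 0.0752) and Slc13a1 (0.0522) and for the falls of Slc17a3 (up to 0.122) and Slc27a2 (up to 0.0808). In control cells it held for the falls of Kap (up to 0.0551), Pck1 (up to 0.0741), Slc13a1 (up to 0.0579) and Slc27a2 (0.0512).

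The count of 8 genes that fell in roxadustat cells rests on few libraries. Slc34a1, Acsm2 and Cyp2e1 were called lower there, and each lost its call without replicate 2 of day 7, which held 52 of 78, 65 of 79 and 23 of 27 counts of the group for these genes in that order. With DESeq2's size factors, library size or the upper quartile in place of TMM the counts were 11 higher and 5 lower, 12 higher and 5 lower, and 11 higher and 5 lower. Without replicates 1 and 2 of day 7 only 1 gene was called lower. In those 2 libraries the 21 genes that pass the filter only through fresh cells summed to 2.69 CPM (replicate 1) and 9.25 CPM (replicate 2), against 1.64 and 1.95 CPM in replicates 3 and 4 and 2.34 to 3.14 CPM in control libraries of day 7. Umod, which encodes uromodulin in the thick ascending limb, was at 0.913, 4.44, 0.0545 and 0 CPM in the 4 roxadustat libraries. The source of these transcripts was not tested.

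With 2 libraries a group, fewer of the listed genes were called between the fresh groups than between the cultured ones. At day 0 5 of the 47 genes were higher and 6 lower after roxadustat, beside 2.73% and 4.11% of all genes tested. The higher ones were Slc22a2, Slc3a1, Slc6a18, Slc13a1 and Ggt1, and the lower ones were Slc34a3, Slc5a2, Slc7a8, Slc6a19, Slc9a3 and Gatm. The median log2 fold change of the 47 genes was -0.05 beside -0.01 for all genes. Only Slc6a18, Ggt1 and Gatm kept their call without each library in turn. These calls use a spread shared with the cultured libraries, and none of the 47 genes was called when the 4 fresh libraries were fitted alone. With library size alone 6 of the 47 genes were higher and 5 lower, and all genes split into 699 higher and 524 lower in place of 511 and 769. Other markers moved here as well, since 9 of 20 loop, distal tubule and collecting duct markers were lower with roxadustat and 6 of 13 tested fibroblast and pericyte markers were higher, and their part was not tested.

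Per kilobase of exon, which allows levels to be compared between genes, the order of the 47 changed with culture. In fresh cells Kap led in both groups, followed in the means by Cyp4b1 and Pck1. The place of Pck1 did not hold beyond the spread (SD, n = 2 each). In control it had 1657 ± 1385 CPM per kilobase, with Slc34a1 next at 1276 ± 109. With roxadustat it had 1232 ± 318, with Slc27a2 next at 1073 ± 169. At day 21 the order in roxadustat cells was Slc6a18 with 66.4 ± 5.59 CPM per kilobase, then Slc4a4 (20.5 ± 0.638), Kap (20.5 ± 1.40), Cyp4b1 (18.0 ± 1.21), Ggt1 (17.5 ± 0.567) and Lrp2 (10.4 ± 0.235; SD, n = 4 each). Slc4a4 and Kap, and Cyp4b1 and Ggt1, did not differ beyond their spread. In control cells the order was Dpep1 (21.8 ± 1.93), Anpep (8.01 ± 2.52), Slc4a4 (6.70 ± 0.638) and Slc7a7 (2.94 ± 0.138), where Anpep and Slc4a4 did not differ beyond their spread.

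The 250 bases before the start of transcription were read from RefSeq promoter sequences (GRCm38.p6) for the 40 of 47 genes that matched, in 56 windows. They were searched on both strands for a short motif of the hepatocyte nuclear factor HNF1 (GTTAAT), a core site of HNF4 (CAAAGTCCA) and the hypoxia response core (ACGTG or GCGTG). The HNF1 motif was in 16.1% of the 56 windows beside 6.43% of all 32851 windows, the HNF4 core in 1.79% beside 0.384%, and the hypoxia core in 26.8% beside 38.6%. HNF1 and HNF4 factors are known for driving proximal tubule genes. The 4 windows printed are of 2 genes that were measurable and higher with roxadustat at day 21 (Slc3a1 and Slc7a7) and of 2 that were lost in both groups (Slc34a1 and Slc22a6). Capitals mark the HNF4 core in Slc3a1 and the HNF1 motif in the others.
Slc3a1 (chr17:85028097-85028346, plus strand): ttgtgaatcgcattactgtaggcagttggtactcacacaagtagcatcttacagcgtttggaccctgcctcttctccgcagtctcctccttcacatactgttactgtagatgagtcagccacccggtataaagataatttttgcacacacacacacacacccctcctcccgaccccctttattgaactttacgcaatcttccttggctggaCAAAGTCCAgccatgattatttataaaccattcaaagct
Slc7a7 (chr14:54409473-54409722, minus strand): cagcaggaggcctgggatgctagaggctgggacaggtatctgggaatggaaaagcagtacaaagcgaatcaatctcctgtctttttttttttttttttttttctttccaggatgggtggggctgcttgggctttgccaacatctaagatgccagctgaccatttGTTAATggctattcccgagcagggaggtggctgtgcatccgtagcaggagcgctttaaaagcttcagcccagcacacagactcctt
Slc34a1 (chr13:55399398-55399647, plus strand): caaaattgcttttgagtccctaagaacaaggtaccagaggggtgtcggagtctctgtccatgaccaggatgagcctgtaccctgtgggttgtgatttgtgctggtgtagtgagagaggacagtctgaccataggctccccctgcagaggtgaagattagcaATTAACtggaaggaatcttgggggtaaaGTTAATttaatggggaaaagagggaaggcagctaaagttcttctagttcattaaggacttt
Slc22a6 (chr19:8617746-8617995, plus strand): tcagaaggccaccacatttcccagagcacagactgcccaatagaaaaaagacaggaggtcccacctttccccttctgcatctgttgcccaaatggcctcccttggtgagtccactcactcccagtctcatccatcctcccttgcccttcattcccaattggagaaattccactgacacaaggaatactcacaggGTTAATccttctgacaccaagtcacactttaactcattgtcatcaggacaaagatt

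The matches began at -39 in Slc3a1, -86 in Slc7a7, -89 and -61 in Slc34a1 and -56 in Slc22a6, counted back from the start. The HNF1 motif was in windows of 9 genes, namely Acsm2, G6pc, Miox, Pck1, Slc22a6, Slc22a8, Slc34a1, Slc6a13 and Slc7a7, of which Slc7a7 was the only one above 1% of its fresh level in either group at day 21. Acsm2, Slc6a13 and Slc7a7 also had other windows, which lacked the motif. The window printed for Slc7a7 is the one farthest downstream of its windows, and which start these cells used was not tested. A match is a description of letters, not of binding.

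Most listed transcription factors of the proximal tubule were higher as well. Of 14 listed factors 11 were higher with roxadustat at day 21 and 2 were lower, beside 30.0% and 32.9% of all genes tested, with a median log2 fold change of 3.08 (2.71 with genes at their bounds). At day 7 6 were higher and 1 lower, beside 24.1% and 23.6%. Hnf4a, a nuclear receptor that many proximal tubule genes depend on, had 872 and 852 CPM with roxadustat and 693 and 879.7 CPM in control at day 0, and 13.9, 12.7, 11.5 and 11.7 CPM with roxadustat against 3.49, 4.07, 3.41 and 3.97 CPM in control at day 7. At day 21 it had 7.21, 7.61, 8.05 and 7.92 CPM with roxadustat and no count in any of the 4 control libraries, which makes it at least 153-fold higher. Pax8, a kidney lineage factor of all tubule segments, had 166, 143, 161 and 158 CPM with roxadustat against 8.11, 9.48, 10.2 and 9.77 CPM in control at day 21. The bile acid receptor gene Nr1h4 averaged 11.4 CPM with roxadustat and 1.20 CPM in control at that time. Cux1 was higher by 0.29 on the log2 scale, and Cebpa was lower with roxadustat, at 5.13 CPM against 12.1 CPM.

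A further list held proximal tubule transporters beyond the 47. Of 34 such genes 18 were higher and 4 lower with roxadustat at day 21, beside 30.0% and 32.9% of all genes tested, with a median log2 fold change of 1.52 (1.11 with genes at their bounds). At day 7 11 were higher and 3 lower, beside 24.1% and 23.6%. The drug efflux pump gene Abcc4 had 618, 528, 587 and 584 CPM with roxadustat against 40.0, 40.0, 44.6 and 41.9 CPM in control at day 21, which is above its fresh level of 40.9 and 35.5 CPM in roxadustat libraries. The water channel gene Aqp1 averaged 28.7 CPM with roxadustat and 1.10 CPM in control, and the cation exporter gene Slc47a1 averaged 8.00 CPM with roxadustat and 0.0829 CPM in control. The phosphate carrier Slc34a2, which is known from lung and intestine, had 9.99 CPM with roxadustat and 0.358 CPM in control. Slc16a10 and Slco1a6, carriers of aromatic amino acids and organic anions, were higher by 2.69 and 5.46 on the log2 scale.

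Of 48 other metabolic genes of the proximal tubule 22 were higher and 6 lower with roxadustat at day 21, beside 30.0% and 32.9% of all genes tested, with a median log2 fold change of 1.07 (0.54 with genes at their bounds). At day 7 17 were higher and 2 lower, beside 24.1% and 23.6%. Ddo, which oxidises D-aspartate, had 36.0 CPM with roxadustat and 1.53 CPM in control at day 21. Enpep, the aminopeptidase that cleaves angiotensin, had 139 CPM with roxadustat and 16.0 CPM in control, and the folate receptor gene Folr1 had 28.7 CPM with roxadustat and 8.96 CPM in control. The glucose-6-phosphate carrier gene Slc37a4 had 32.6 CPM with roxadustat and 11.2 CPM in control, while its partner enzyme gene G6pc had no count. Ass1, which makes argininosuccinate, and Ace, the angiotensin-converting enzyme gene that endothelium also carries, were lower with roxadustat, with log2 fold changes of -2.93 and -5.59. Ace had 0.476, 0.389, 0.0994 and 0.246 CPM with roxadustat against 14.7, 13.0, 18.1 and 16.9 CPM in control at day 21.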

How the data were processed

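The deposited files hold raw read counts per Ensembl gene, 1 file per library, for 20 libraries and 47729 genes. Per the submitters' processing notes, reads went through bcl2fastq, STAR 2.5.2a and featureCounts 1.5.0-p1 on the mm10 build, from non-stranded mRNA libraries per the labels' protocols, and the annotation release is not given in the sources used here. Reads of overlapping genes on opposite strands therefore cannot be separated. Genes were matched to GENCODE release M21 for symbols and positions.

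Groups came from the sample titles. Counts were fitted with edgeR 4.0.16 in R 4.3.3 (filterByExpr, TMM scaling, robust quasi-likelihood F test) in 1 fit of the 6 groups, with Benjamini-Hochberg adjustment over the 18731 genes that passed, and called at an adjusted p under 0.05. Each SE was derived from the log2 fold change and its F statistic (absolute value over the root of F). Where a group had no count, the fold was bounded against 3 counts over that group, and with 1 to 3 counts the ratio has an exact 95% interval that covers counting error only. The procedure was tested on simulated data. Alternatives were 3 other scalings, no filter, a minimum mean of 1 CPM, a replicate block, DESeq2 1.42.0, limma voom (limma 3.58.1), a fit of only the groups compared, and leaving out libraries.

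The 47 genes and all lists were chosen with earlier results of these data known. Values of every library are given for genes called at day 7 or day 21 whose higher group averaged 1 CPM or more, and for the gene of each role with the highest fresh CPM. Genes of other lists are named if called at day 21 at 5 CPM or more, at most 6 a list by p, except for 1 gene that is not reported here.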

Additional observations from a re-analysis of the deposited data

Results flagged for a closer look

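For 15 genes with over 3 counts in every group compared, the roxadustat effect at day 21 differed from that at day 7 by the interaction test, and for 17 genes the effect at day 7 differed from that at day 0 (edgeR, adjusted p under 0.05 over 18731 genes). The values are differences of log2 fold changes of roxadustat over control, later minus earlier. No explanation of them was tested.

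Between day 7 and day 21 the difference was 6.79 for Kap, 6.62 for Slc6a18, 5.80 for Cyp4b1, 4.84 for Keg1, 4.68 for Ggt1, 3.98 for Lrp2, 3.18 for Mme and 2.28 for Cubn. It was 1.24 for Slc7a7, 1.18 for Slc4a4, 1.08 for Gatm and 0.91 for Slc2a2. It was -5.22 for Dpep1, -2.83 for Anpep and -0.45 for Slc22a18. Slc2a2 lost this call without control replicate 3 of day 7 (edgeR adjusted p = 0.0513), and Slc22a18 lost it without any of 11 libraries in turn (edgeR adjusted p up to 0.18). The edgeR adjusted p of Slc22a18 was 0.0461, and with library size alone its value was -0.17 (edgeR adjusted p = 0.483). Kap rests on 4 control counts at day 21.

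Between day 0 and day 7 the difference was 2.11 for Ggt1, 1.86 for Keg1, 1.57 for Slc6a19, 1.56 for Acy3, 1.54 for Cyp4b1, 1.44 for Slc5a12, 1.38 for Slc22a18, 1.30 for Gatm and 1.25 for Lrp2. It was 0.99 for Slc2a2, 0.85 for Slc3a1, 0.59 for Cubn, 0.55 for Slc6a18, 0.46 for Slc7a7 and 0.31 for Slc4a4. It was -1.32 for Slc17a1 and -1.04 for Mme. Cubn, Slc3a1, Slc4a4, Slc5a12 and Slc7a7 lost this call when 1 library was left out. Dixon's test was run for each listed gene in each group of 4 libraries where it averaged at least 1 CPM, and in these 73 cases no library was flagged. With 4 libraries the test detects little. Kap in roxadustat cells at day 7 was not flagged, at 20.6 CPM in replicate 2 against 4.56, 0.273 and 0.497 CPM in the others. Groups under that level, such as Slc22a6 in roxadustat cells at day 7, were not tested.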

How the results depend on the processing

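The counts of genes higher and lower with roxadustat at day 21 were 18 to 27 and 2 in every alternative, and 23 to 24 and 2 to 2 without each library. At day 7 14 to 19 were higher, or 14 to 16 without each library. The 8 genes that fell in roxadustat cells between day 7 and day 21 became 5 with DESeq2's size factors, 5 with library size alone, 5 with upper quartile scaling, 13 without a filter, 3 with limma voom, 3 with only the groups compared, 1 without replicates 1 and 2 of day 7, and 3 to 9 without each library. At day 0 the 5 higher genes became 8 without a filter, 8 with limma voom, 0 with only the groups compared and 2 to 8 without each library, and the 6 lower genes became 12, 8, 0 and 1 to 8 under the same settings. With only the groups compared, all genes gave 19 higher and 4 lower in place of 511 and 769.

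Roxadustat replicates 1 and 2 of day 7 hold most of their group's counts for Slc34a1, Slc22a6, Acsm2 and Kap. Without both, 7 genes in place of 2 were lower at day 7, and 6 in place of 2 had a smaller effect at day 7 than at day 0. The log2 fold changes at day 7 were then -4.25 for Slc34a1, -2.94 for Slc22a6, -3.70 for Acsm2 and -3.22 for Kap, and the differences from day 0 were -3.96, -2.98, -3.65 and -3.72 for the same genes in that order. For Slc34a1 the change from day 7 to day 21 in roxadustat cells was then 0.77, and the difference of effects was 4.68. Without each library, 2 to 6 genes were lower at day 7 and 2 to 4 had a smaller effect at day 7 than at day 0, and the day 7 value ran from -1.77 to 0.76 for Slc22a6, from -1.66 to 0.80 for Acsm2 and from -1.85 to 0.71 for Cyp2e1. Pck1 at day 0 ran from -1.11 to 0.85. Without control replicates 3 and 4 of day 21, Slc5a12 was 0.58 at day 21. The cause of these changes was not tested.

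Of 42 correlations of deviations between same-numbered libraries 2 were over 0.1 (range -0.18 to 0.23). Such correlations cannot show whether same-numbered libraries shared an animal or a batch, which the labels do not say. With the replicate block the higher and lower genes numbered 6 and 7 for day 0, 14 and 2 for day 7, and 24 and 2 for day 21. Library size alone moved the split of all genes into higher and lower for day 21 against day 7 in control to 5063 and 8172, in place of 6456 and 6421. Of the 21 genes not called at day 21, 11 had at most 3 counts in each group, where no difference was detectable at this depth.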
